A study of Mus musculus with 12 samples.

Results

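The genes described here are 43 lysosomal hydrolases and membrane proteins, taken by symbol from a table of 56441 genes in mouse liver. All 43 were found, and all passed the filter on low counts. They comprise 11 proteases, 11 glycosidases, 4 sulfatases including sulfamidase, 7 lipid hydrolases and activator proteins, 8 membrane proteins and transporters, and 2 cholesterol exporters. RNA was sequenced in 12 libraries in 4 groups of 3. C57BL/6 mice were injected through the tail vein at 6 to 8 weeks of age with AAV8, a virus described as liver-specific, carrying fumarate hydratase (AAV8-FH) or the vector alone (AAV8-vector), and were fasted for 24 h after 1 month. The ob/ob mice, which lack functional leptin and become obese, received either virus at the same age and were kept on a high-fat diet (HFD) for 1 month. The study asks about the role of FH, an enzyme of the tricarboxylic acid cycle, in protection from fatty liver. The groups therefore share AAV8 injection, and the obese and lean models differ in genotype, diet and fasting together. The labels do not tie the 3 libraries of each group to different mice, and the spread on which every p-value rests may be technical.

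Lysosomes are acidic compartments in which proteins, glycans, sulfated sugars and lipids are broken down by separate sets of hydrolases. Most of these enzymes are tagged with mannose 6-phosphate in the Golgi and carried to the lysosome by receptors, while membrane proteins protect the boundary and export the products. In liver, lysosomes digest material delivered by autophagy, lipid droplets included, and by endocytosis. Many lysosomal genes carry a shared promoter motif bound by the factors TFEB and TFE3, called the CLEAR element.

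Sequencing gave 12231828 to 14884323 counts per fasted vector library and 19107050 to 25873379 per fasted FH library. The ob/ob libraries had 12573267 to 14496559 with the vector and 21632289 to 23506015 with FH. Levels are given as CPM (counts scaled to a common library total) with totals adjusted by TMM, a scaling that assumes that most genes do not change. The TMM factors were 1.12 to 1.37 in the vector and 0.72 to 0.91 in the FH libraries, without overlap. FH1, the mouse gene of the delivered enzyme, was at 311, 408 and 238 CPM in the 3 fasted vector libraries, 926, 721 and 792 CPM with FH, 142, 106 and 118 CPM in the ob/ob vector libraries and 620.2, 616 and 802 CPM with FH. Every FH library lay above every vector library, as the labels have it. The labels call the tissue liver and the cells hepatocytes, and 9 hepatocyte markers together took 7.55% to 9.73% of counts with the vector and 14.96% to 16.8% with FH. Of the 9 hepatocyte markers 9 rose in the fasted and 8 in the ob/ob livers, beside 27.4% and 25.8% of all genes tested. On library totals 6 and 6 rose, beside 7.16% and 6.83%. The part of these markers in the lysosomal changes was not tested. In bulk tissue fewer cells of a type and less RNA per cell cannot be told apart. Markers of macrophages (13), sinusoidal endothelium (9) and stellate cells (7) all passed the filter too, so RNA of these cells was present. XIST, the RNA of the inactive X chromosome, had 2242 to 4992 counts in the 3 ob/ob FH libraries and 1 to 24 in the other 9, and Y-linked genes had 0 counts against 2304 to 5181. In the ob/ob comparison and in the difference between models, FH and sex markers cannot be told apart. Ob/ob vector replicate 2 stood apart in the clock gene DBP, at 0.564 CPM of library totals against 48.9 and 48.4 in the other two. In DBP the fasted groups did not overlap, at 2.69 to 6.64 CPM with the vector and 33.5 to 46.8 CPM with FH. The ob/ob FH libraries were at 9.98 to 33.6 CPM. The part of this difference in the lysosomal changes was not tested.

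Most of the lysosomal genes were higher with FH in both models on the TMM scale. In the fasted livers 32 of 43 rose, 1 fell and 10 did not pass the test, with a median log2 fold change of 0.80, beside 27.4% of all 15228 genes tested that rose, 27.6% that fell and a median of -0.04. In the ob/ob livers 34 rose, 0 fell and 9 did not pass, with a median of 0.89, beside 25.8% and 27.9% of all genes and a median of -0.01. A gene was called at an adjusted p under 0.05 in edgeR's quasi-likelihood test. The same 29 genes rose in both models, out of the 32 and the 34. CTSS fell in the fasted and rose in the ob/ob livers. CTSC, LGMN, ASAH1 and NPC2 rose in the ob/ob livers and missed the threshold in the fasted livers, ARSA, CTNS and SLC17A5 the reverse, and CTSH, IDUA, IDS, GALC, CD63 and MCOLN1 passed in neither.

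These counts depend on the scaling. On plain library totals the median of all genes moved to -0.71 in the fasted and -0.63 in the ob/ob comparison, and the medians of the lysosomal genes to 0.13 and 0.27. In the fasted livers 15 members then rose and 9 fell, beside 7.16% and 55.7% of all genes. In the ob/ob livers 16 rose and 7 fell, beside 6.83% and 53.3%. None of the genes that rose on the TMM scale fell on library totals, where 17 of 32 and 18 of 34 no longer passed. The 10 genes that rose in both models on both scales were CTSD, CTSZ, GLB1, GAA, NAGLU, ARSB, SMPD1, PSAP, GM2A and LAMP1. Changes given for single genes are log2 fold changes on the TMM scale, the fasted value before the ob/ob value, and where library totals turn a direction this is said beside the gene.

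**Figure D1:**
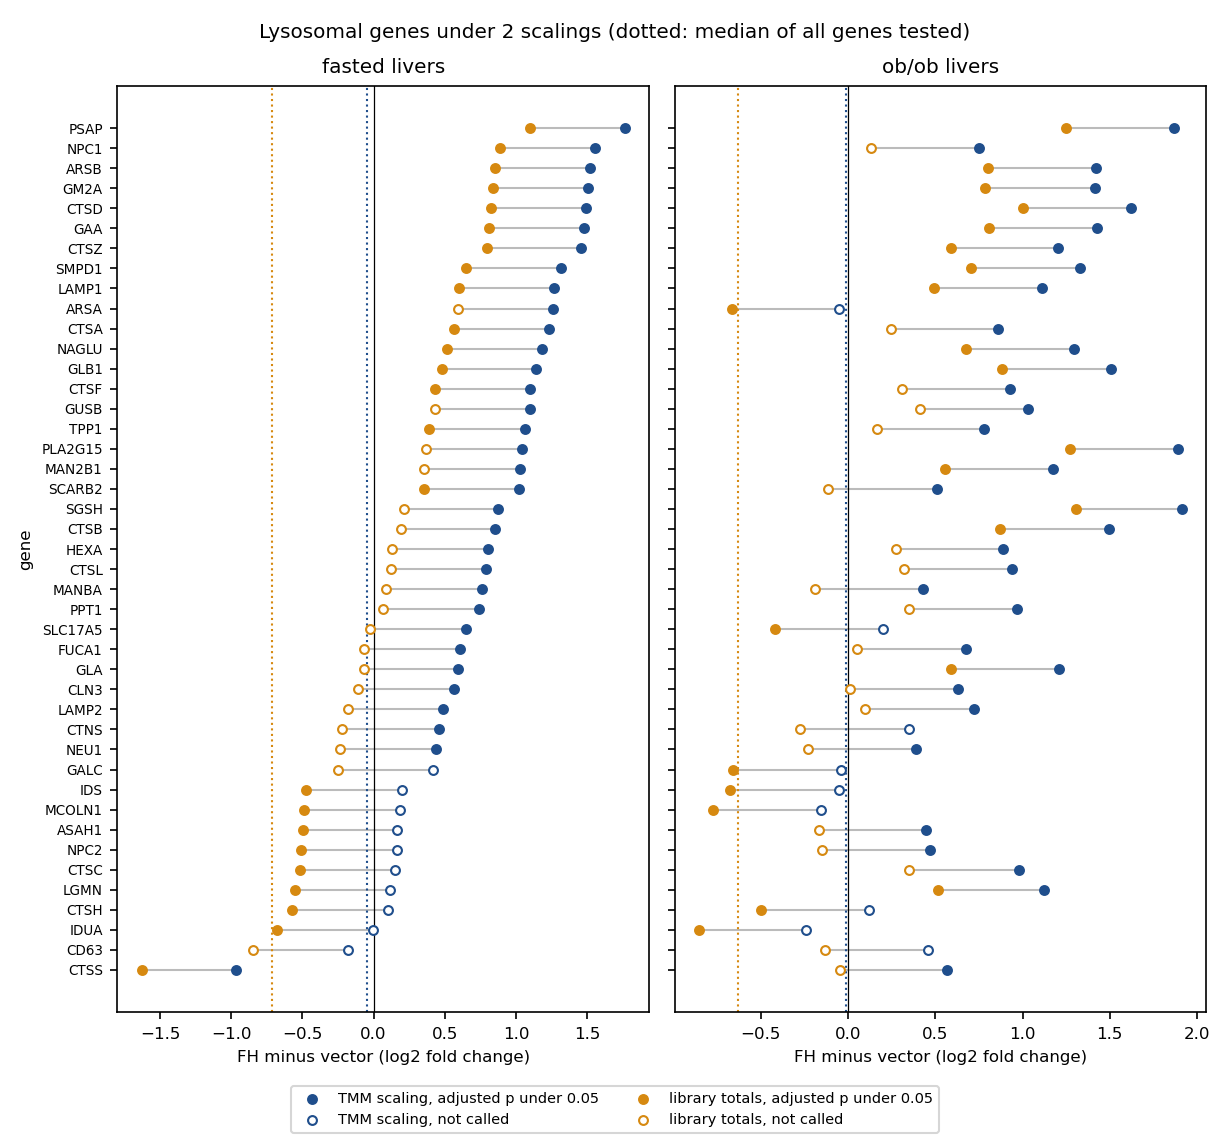
Log2 fold change of FH over vector for each of the 43 genes in fasted (left) and ob/ob livers (right), with TMM scaling in blue and library totals in orange. Filled points passed an adjusted p of 0.05, and dotted lines give the median of all 15228 genes tested. The members lie above the dotted line of their own scale in most cases, while the zero line falls within the orange points.

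**Figure D2:**
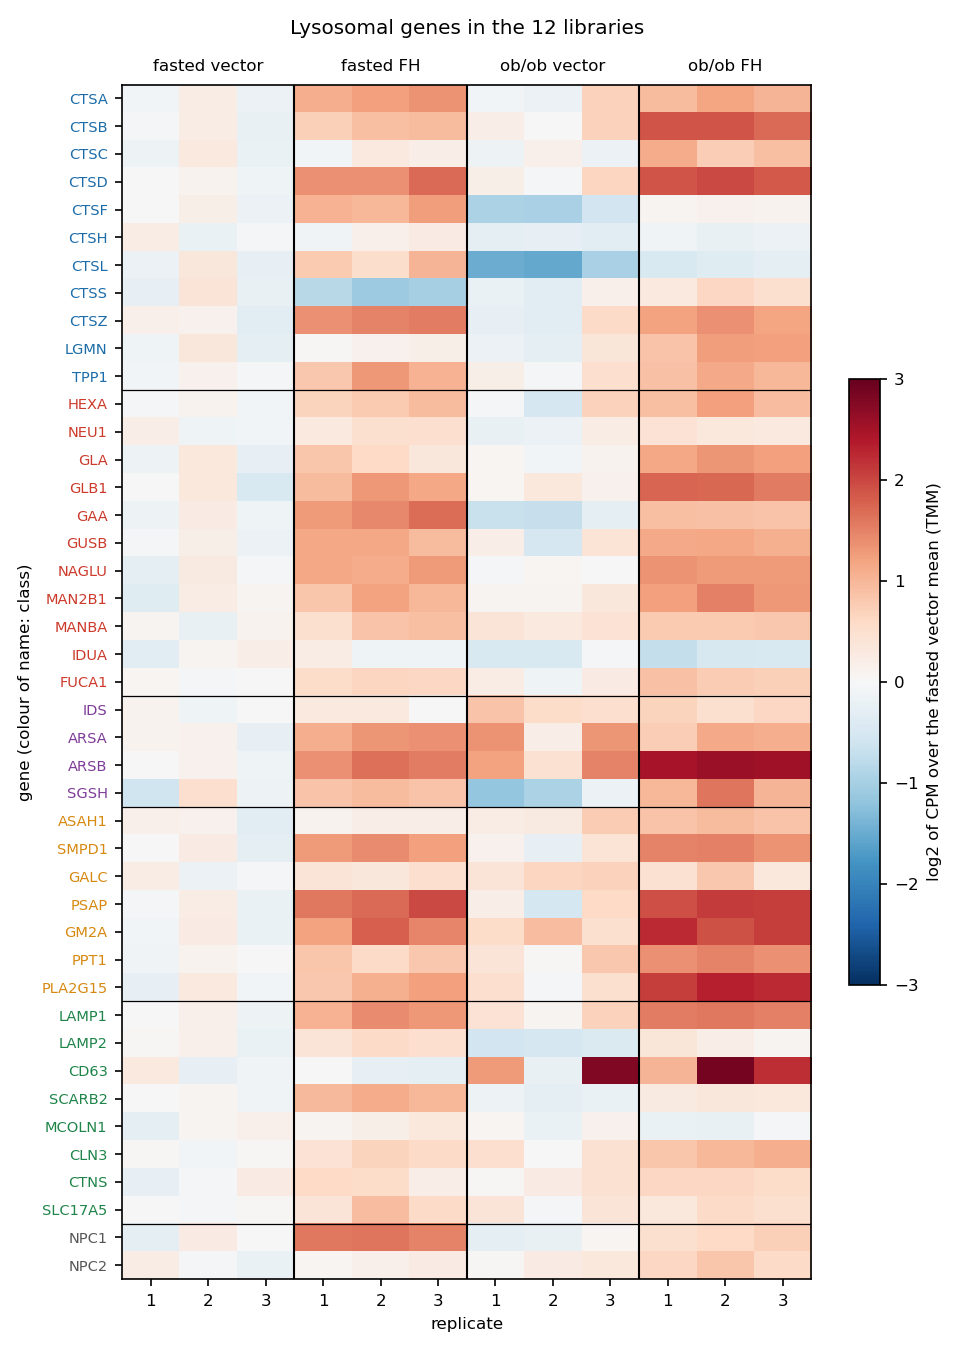
CPM (TMM) of each gene in each of the 12 libraries as log2 of the ratio to the mean of the fasted vector group, with gene names coloured by class. Red marks higher and blue lower values, and the FH columns are redder than the vector columns of the same model for most rows, with CTSS in the fasted livers as the blue exception.

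As a share of library counts, which TMM does not touch, the 43 genes together took 0.493% ± 0.0402 of counts (SD, n = 3) in the fasted vector libraries and 0.569% ± 0.0351 with FH, with ranges of 0.466% to 0.539% and 0.535% to 0.605% that overlap slightly. In the ob/ob groups the share was 0.499% ± 0.0739 and 0.663% ± 0.0371, and the ranges of 0.432% to 0.578% and 0.621% to 0.693% do not overlap. The share of the lipid hydrolases and activators went from 0.0459% ± 0.00468 to 0.0849% ± 0.00869 in the fasted and from 0.0645% ± 0.0154 to 0.129% ± 0.0102 in the ob/ob livers. PSAP made up most of this class, with a mean of 259 of 396 CPM in the fasted vector and 881 of 1163 CPM in the fasted FH libraries. The mean protease share went from 0.240% to 0.256% (fasted, ranges overlapping) and from 0.205% to 0.274% (ob/ob). Membrane proteins went from 0.148% to 0.158% (fasted, overlapping) and from 0.154% to 0.173%. Glycosidases went from 0.0378% to 0.0452% and from 0.0445% to 0.0560%. In the fasted livers the sulfatases went from 0.00589% to 0.00788% and the cholesterol exporters from 0.0152% to 0.0180%. Their ob/ob means were lower with FH, at 0.0128% to 0.0121% and 0.0184% to 0.0179%. No test was made on these sums.

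**Figure D3:**
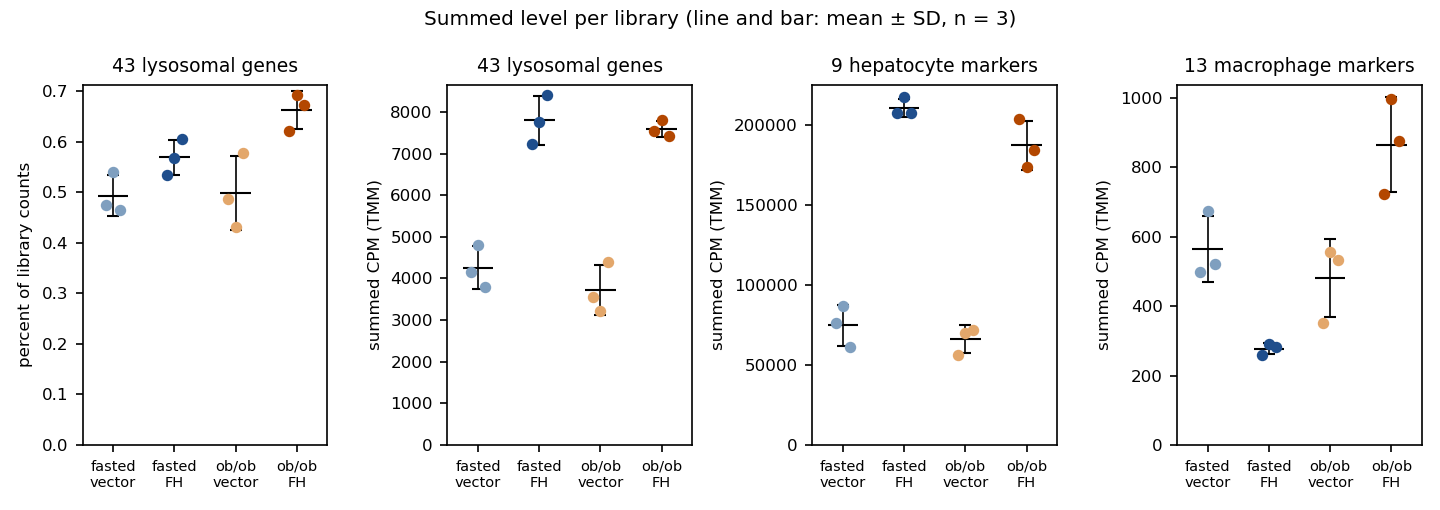
Summed level of the 43 lysosomal genes per library, as percent of library counts and as TMM-scaled CPM, beside the summed CPM of 9 hepatocyte and 13 macrophage markers. Points are libraries and bars the mean ± SD of 3. The mean lysosomal and hepatocyte sums are higher with FH in both models, while the macrophage sum is lower with FH in the fasted and higher in the ob/ob livers.

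The core of the CLEAR element, CACGTG (a palindrome, so the same on both strands), was looked for from 250 bases before to 50 after the RefSeq start sites (GRCm38.p6). Of the 39 members with a promoter entry 14 held it (35.9%), against 8.09% of 27025 genes and 7.15% of 32851 promoters. With a T before it on either strand (TCACGTG) 12 members held it (30.8%), against 4.29% of genes and 3.77% of promoters. The members with the core are ARSA, CLN3, CTSA, CTSD, CTSF, CTSL, GAA, GLA, GLB1, LAMP1, LGMN, MCOLN1, NAGLU and SGSH. ASAH1, CTSB, CTSH and NPC1 had no entry. A match describes the letters and is not evidence of binding. The element is known from many lysosomal genes, as given above, so the higher share among the members is not a result of these libraries. The 80 bases printed for each of 6 genes lie upstream of the start, with the core in capitals, and were chosen to show how copies differ in number and place: LAMP1 at chr8:13159081-13159160 (plus strand) holds the most copies, MCOLN1 at chr8:3500424-3500503 (plus strand) and GLA at chrX:134601174-134601253 (minus strand) hold 2 each, and CTSD at chr7:142387883-142387962 (minus strand), GAA at chr11:119267786-119267865 (plus strand) and NAGLU at chr11:101069984-101070063 (plus strand) are among the genes that rose in both models on both scales.
LAMP1: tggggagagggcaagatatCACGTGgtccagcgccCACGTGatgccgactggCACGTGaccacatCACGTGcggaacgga
MCOLN1: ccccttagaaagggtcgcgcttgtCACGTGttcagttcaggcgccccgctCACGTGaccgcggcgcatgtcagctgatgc
GLA: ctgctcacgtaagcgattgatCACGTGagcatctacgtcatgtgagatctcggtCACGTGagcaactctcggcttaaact
CTSD: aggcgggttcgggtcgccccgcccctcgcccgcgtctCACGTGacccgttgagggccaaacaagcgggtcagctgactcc
GAA: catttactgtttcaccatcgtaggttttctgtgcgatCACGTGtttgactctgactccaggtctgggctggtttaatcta
NAGLU: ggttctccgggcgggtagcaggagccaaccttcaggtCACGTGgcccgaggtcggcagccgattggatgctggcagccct

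In LAMP1 the 4 copies begin 61, 45, 28 and 15 bases before the start site, and in MCOLN1 the 2 copies begin 71 and 45 bases before it. LAMP1 rose in both models and MCOLN1 in neither, so genes with several copies were found on both sides. In GLA the copies begin 227 and 194 bases before the start, in GAA 140 and in NAGLU 73, and CTSD has a second copy further upstream, at 245 bases beside the one shown at 98. Of the 14 genes with the core 12 rose in the fasted livers (all but LGMN and MCOLN1) and 12 in the ob/ob livers (all but ARSA and MCOLN1). Their median log2 fold change was 1.12 in each model. The 25 members whose promoter lacked it had medians of 0.74 and 0.72, with 18 and 19 that rose. These counts and medians are on the TMM scale, where 27.4% and 25.8% of all genes rose. On library totals the genes with the core that rose in the fasted livers were CTSA, CTSD, CTSF, GAA, GLB1, LAMP1 and NAGLU. LGMN and MCOLN1 fell there. In the ob/ob livers CTSD, GAA, GLA, GLB1, LAMP1, LGMN, NAGLU and SGSH rose, and ARSA and MCOLN1 fell. The medians are a description of 2 sets of genes, with no test.

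Among the proteases, 7 of 11 rose and 1 fell in the fasted livers, and 10 rose in the ob/ob livers. Over all genes 27.4% rose and 27.6% fell in the former, and 25.8% and 27.9% in the latter. On library totals 5 proteases rose and 4 fell in the fasted livers, beside 7.16% and 55.7% of all genes. In the ob/ob livers 4 rose and 1 fell, beside 6.83% and 53.3%. CTSD, the main aspartic protease of the lysosome, changed the most in both models on the TMM scale. Its level in the fasted libraries was 58.5, 62.2 and 53.1 CPM with the vector against 151, 149 and 189 CPM with FH, and in the ob/ob libraries 65.2, 55.8 and 90.4 against 214, 229 and 208 CPM. The groups did not overlap in either model, and the log2 fold changes were 1.49 (SE 0.17, edgeR adjusted p = 1.27e-05) and 1.62 (SE 0.17, adjusted p = 7.06e-06). CTSZ, a carboxypeptidase, rose by 1.46 and 1.20, and CTSA, the protective protein that holds GLB1 and NEU1 in a complex, by 1.23 and 0.86. CTSB, an abundant cysteine protease, rose by 0.86 in the fasted and 1.49 in the ob/ob livers. The difference between these 2 effects did not pass the test (0.64, adjusted p = 0.136). TPP1, a tripeptidyl peptidase, rose by 1.06 and 0.78, CTSF by 1.10 and 0.93, and CTSL, the most abundant lysosomal transcript per length in the fasted vector livers, by 0.79 and 0.94. CTSH, an aminopeptidase, lay at 392, 292 and 327 CPM with the vector and 311, 376 and 398 CPM with FH in the fasted, and at 274, 286 and 267 CPM (vector) against 315, 287 and 299 CPM (FH) in the ob/ob livers. The fasted groups overlapped and the ob/ob groups were close to each other. Its log2 fold changes of 0.10 (adjusted p = 0.56) and 0.12 (0.481) did not pass, and on library totals it fell by 0.57 and 0.50.

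CTSS, CTSC and LGMN stood apart from the other proteases. CTSS, a cathepsin prominent in antigen-presenting cells, was at 30.6, 47.6 and 31.0 CPM in the fasted vector and 20.4, 17.1 and 18.4 CPM in the fasted FH libraries, and at 31.8, 29.1 and 40.4 CPM (vector) against 44.2, 55.7 and 50.4 CPM (FH) in the ob/ob libraries. The groups did not overlap in either model, FH being lower in the fasted and higher in the ob/ob livers. The log2 fold changes were -0.97 (SE 0.18, adjusted p = 0.000602) and 0.57 (SE 0.18, adjusted p = 0.0155). The ob/ob value fell short without ob/ob FH replicate 2 (range over the 12 fits that each leave out 1 library 0.49 to 0.74, adjusted p up to 0.0610) and was -0.047 on library totals. CTSC, which activates the serine proteases of immune cells, was at 61.6, 84.2 and 59.6 CPM (vector) against 65.0, 83.6 and 79.0 CPM (FH) in the fasted and 61.5, 76.3 and 60.4 CPM (vector) against 149, 114 and 127 CPM (FH) in the ob/ob livers. It overlapped in the former (0.15, adjusted p = 0.464) and not in the latter (0.98, adjusted p = 0.000263). On library totals the fasted value was -0.52 and passed edgeR's test (adjusted p = 0.00879). LGMN, an asparaginyl endopeptidase that processes cathepsins, was at 45.6, 63.5 and 41.5 CPM (vector) against 51.3, 54.5 and 56.9 CPM (FH) in the fasted livers and 44.1, 41.3 and 64.6 CPM (vector) against 90.3, 119 and 118 CPM (FH) in the ob/ob livers. The fasted groups overlapped (0.11, adjusted p = 0.642), and the ob/ob FH libraries all lay above their vector libraries (1.13, adjusted p = 0.000295). On library totals the fasted value of LGMN was -0.55 and passed edgeR's test (adjusted p = 0.0213).

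On the TMM scale the glycosidases moved more evenly, with 10 of 11 higher in each model and IDUA as the exception in both. Over all genes 27.4% and 25.8% rose. On library totals 3 glycosidases rose and 1 fell in the fasted livers, beside 7.16% and 55.7% of all genes. In the ob/ob livers 5 rose and 1 fell, beside 6.83% and 53.3%. GAA, the acid glucosidase that degrades lysosomal glycogen, went from 44.1, 57.5 and 45.0 CPM (vector) to 118, 133 and 157 CPM (FH) in the fasted livers, and from 30.7, 30.1 and 39.8 to 92.0, 90.3 and 88.4 CPM in the ob/ob livers. All FH libraries lay above the vector libraries, and the log2 fold changes were 1.48 (SE 0.15, edgeR adjusted p = 6.39e-06) and 1.43 (SE 0.15, 8.18e-06). GLB1, the beta-galactosidase, showed the largest rise of the class in the ob/ob livers, from 5.51, 6.57 and 5.71 to 17.7, 17.4 and 15.5 CPM (1.51, SE 0.18, adjusted p = 2.06e-05). The fasted libraries went from 5.32, 6.58 and 3.86 to 10.1, 13.04 and 11.7 CPM (1.14), again without overlap. NAGLU, which removes N-acetylglucosamine from heparan sulfate, rose by 1.18 and 1.30, GUSB, the beta-glucuronidase, by 1.10 and 1.03, and the alpha-mannosidase MAN2B1 by 1.02 and 1.17. HEXA, a subunit of beta-hexosaminidase, rose by 0.80 and 0.89, and the fucosidase FUCA1 by 0.61 and 0.67.

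IDUA, the iduronidase of heparan and dermatan sulfate, was at 6.03, 8.08 and 8.84 CPM (vector) against 8.91, 7.02 and 6.97 CPM (FH) in the fasted and 5.57, 5.57 and 7.43 CPM (vector) against 4.66, 5.52 and 5.54 CPM (FH) in the ob/ob livers. The fasted groups overlapped, and the ob/ob FH libraries lay below the vector libraries. Its changes of -0.0070 (adjusted p = 0.98) and -0.24 (0.318) did not pass the test, and on library totals it fell by 0.68 and 0.86. The smallest rises were close to the threshold. NEU1, the lysosomal sialidase, rose by 0.44 (adjusted p = 0.0173) and 0.39 (0.0291). It missed the threshold in the fasted livers without fasted vector replicate 2 or 3, fasted FH replicate 3 or ob/ob FH replicate 3 (0.37 to 0.51 over all 12 fits, adjusted p up to 0.0574), and in the ob/ob livers without any FH library or vector replicate 1 or 2 (0.32 to 0.57, up to 0.110). GLA, the alpha-galactosidase, rose by 0.59 in the fasted livers, a call lost without fasted vector replicate 1 or 3 or FH replicate 1 (0.47 to 0.81, adjusted p up to 0.0892), and by 1.21 in the ob/ob livers. MANBA, the beta-mannosidase, rose by 0.76 and 0.43, the latter lost without ob/ob FH replicate 3 (0.40 to 0.48, adjusted p up to 0.0530). On library totals NEU1 (-0.24 and -0.23), GLA in the fasted (-0.068), FUCA1 in the fasted (-0.067) and MANBA in the ob/ob livers (-0.19) turned below 0 without passing the test.

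The 4 genes that strip sulfate differed from one another. ARSB, the arylsulfatase of dermatan and chondroitin sulfate, went from 11.3, 12.4 and 10.3 CPM (vector) to 29.6, 35.5 and 32.6 CPM (FH) in the fasted livers, and from 26.2, 15.5 and 32.1 to 62.9, 67.9 and 66.2 CPM in the ob/ob livers. The groups did not overlap, with log2 fold changes of 1.52 (SE 0.21, edgeR adjusted p = 4.89e-05) and 1.42 (SE 0.20, 6.07e-05). SGSH, the sulfamidase of heparan sulfate, had the lowest mean CPM of the 43 over the 4 groups, at 1.56, 3.35 and 2.13 CPM (vector) against 4.24, 4.55 and 4.23 CPM (FH) in the fasted and 1.04, 1.21 and 2.09 CPM (vector) against 4.66, 7.13 and 4.74 CPM (FH) in the ob/ob livers. The FH libraries lay above the vector libraries in both models. It had the largest ob/ob change of all members (1.92, SE 0.32, adjusted p = 0.000244). Its fasted rise of 0.88 (adjusted p = 0.0302) was lost without fasted vector replicate 1 or 3, any fasted FH library or ob/ob FH replicate 3 (0.60 to 1.25, up to 0.142).

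ARSA, which acts on the sulfatide lipids of myelin, was at 24.3, 24.8 and 19.1 CPM in the fasted vector and 48.2, 56.7 and 58.5 CPM in the fasted FH libraries, a rise of 1.26 (SE 0.25, adjusted p = 0.000762) without overlap. The ob/ob libraries were at 58.0, 25.9 and 57.2 CPM with the vector and 37.8, 50.2 and 48.3 CPM with FH (-0.051, adjusted p = 0.874). On library totals ARSA fell by 0.67 in the ob/ob livers (edgeR adjusted p = 0.0301). Vector replicate 2 lay below all FH libraries and the other vector libraries above them. IDS, the iduronate sulfatase, was at 15.4, 13.1 and 14.4 CPM (vector) against 17.4, 17.5 and 14.4 CPM (FH) in the fasted livers (0.20, adjusted p = 0.228) and 26.0, 20.9 and 20.4 CPM (vector) against 22.8, 20.1 and 21.8 CPM (FH) in the ob/ob livers (-0.053, adjusted p = 0.757). The groups overlapped in both, and on library totals it fell by 0.47 and 0.68. Exons of these genes overlap genes on the other strand in GENCODE M21, over 39.9% of the exon bases of ARSB, 21.6% of SGSH and 18.8% of ARSA. The library kit keeps strand, but whether reads were counted by strand is not given, so these values are uncertain. The same holds for 11 further members with such overlaps, among them CTSL (26.8% of its exon bases) and LAMP1.

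Of the 7 lipid hydrolases and activators, 5 rose in the fasted and 6 in the ob/ob livers, beside 27.4% and 25.8% of all genes. On library totals 3 rose and 1 fell in the fasted livers, beside 7.16% and 55.7% of all genes. In the ob/ob livers 4 rose and 1 fell, beside 6.83% and 53.3%. PSAP, the precursor of the saposins that present sphingolipids to their hydrolases, had the largest rise of all 43 genes in the fasted livers. It went from 251, 301 and 224 CPM (vector) to 777, 846 and 1019 CPM (FH) there, and from 299, 179 and 395 to 992, 1104 and 1089.8 CPM in the ob/ob livers. All FH libraries lay far above the vector libraries, and the log2 fold changes were 1.77 (SE 0.24, edgeR adjusted p = 4.52e-05) and 1.87 (SE 0.24, 2.98e-05). GM2A, the activator that lifts GM2 ganglioside out of the membrane, rose by 1.51 and 1.41, and SMPD1, the acid sphingomyelinase, by 1.31 and 1.33. PLA2G15, a lysosomal phospholipase, went from 5.61, 8.14 and 6.31 to 11.7, 14.0 and 15.7 CPM in the fasted and from 9.52, 6.41 and 9.37 to 28.4, 33.7 and 31.6 CPM in the ob/ob livers, with no overlap. Its rises were 1.04 and 1.89, and their difference of 0.85 missed the threshold (adjusted p = 0.0585).

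PPT1, which removes palmitate from proteins, rose by 0.74 and 0.97. ASAH1, the acid ceramidase, was at 38.7, 38.1 and 28.2 CPM (vector) against 37.4, 40.5 and 40.0 CPM (FH) in the fasted livers, where it overlapped (0.17, adjusted p = 0.377), and at 41.0, 42.2 and 59.1 CPM (vector) against 63.0, 67.6 and 63.7 CPM (FH) in the ob/ob livers. The ob/ob rise of 0.45 (adjusted p = 0.0242) was lost without ob/ob vector replicate 1 or 2 or any ob/ob FH library (0.37 to 0.66, up to 0.0901). On library totals ASAH1 fell by 0.50 in the fasted livers and was at -0.17 in the ob/ob livers. GALC, the galactosylceramidase, was at 6.03, 4.61 and 4.99 CPM (vector) against 6.86, 6.62 and 7.34 CPM (FH) in the fasted livers and 6.85, 8.15 and 8.43 CPM (vector) against 7.15, 9.16 and 6.53 CPM (FH) in the ob/ob livers. The FH libraries lay above the vector libraries in the former (0.42, adjusted p = 0.0664, -0.25 on library totals). They overlapped them in the latter (-0.039, 0.869). On library totals the ob/ob value was -0.66 and passed edgeR's test (adjusted p = 0.00629).

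**Figure D4:**
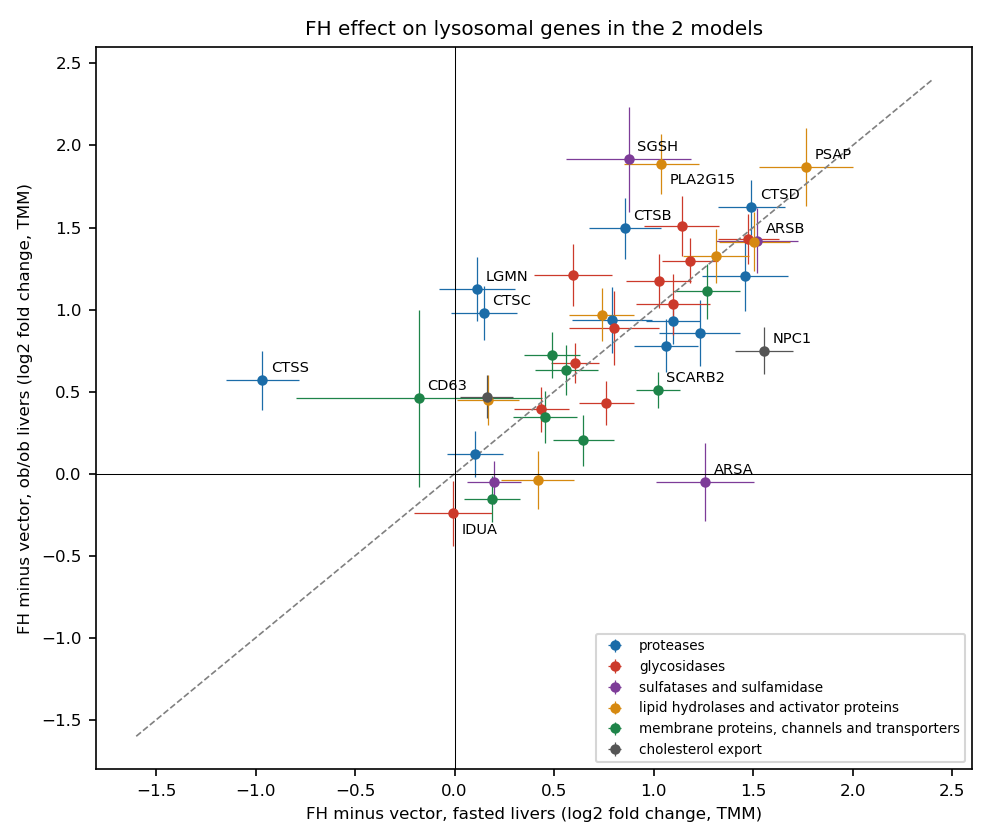
Log2 fold change of FH over vector in the fasted livers (x) and in the ob/ob livers (y) for the 43 genes on the TMM scale, with bars of 1 SE and the dashed line of equal effects. Most genes lie up and right of the origin near the line, while CTSS, CTSC and LGMN lie above it and ARSA and NPC1 below it.

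Among the membrane proteins and transporters 6 of 8 rose in the fasted and 4 in the ob/ob livers, with medians over the 8 of 0.52 and 0.48. Over all genes 27.4% and 25.8% rose. On library totals the medians over the 8 turned to -0.15 and -0.12. There 2 rose and 1 fell in the fasted livers, beside 7.16% and 55.7% of all genes. In the ob/ob livers 1 rose and 2 fell, beside 6.83% and 53.3%. LAMP1, a heavily glycosylated protein of the lysosomal membrane whose promoter is printed above, went from 259, 292 and 235 to 543, 702 and 646 CPM in the fasted and from 356, 278 and 425 to 760.0, 784 and 743 CPM in the ob/ob livers. The groups did not overlap, and the rises were 1.27 (SE 0.17, edgeR adjusted p = 4.11e-05) and 1.11 (SE 0.17, 0.00011). LAMP2, its relative that also serves chaperone-mediated autophagy, rose by 0.49 and 0.72, with -0.18 on library totals in the fasted livers. SCARB2, the receptor that brings glucocerebrosidase to the lysosome, rose by 1.02 and 0.51, with -0.11 on library totals in the ob/ob livers. The difference of -0.51 between its effects missed the threshold (adjusted p = 0.0584). CLN3, a membrane protein lost in juvenile Batten disease, rose by 0.56 and 0.63, with -0.11 on library totals in the fasted livers.

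The exporters of cystine and sialic acid rose in the fasted livers and missed the threshold in the ob/ob livers, and their difference between models did not pass. CTNS, the cystine exporter, rose by 0.46 (adjusted p = 0.0273) in the fasted livers and was at 0.35 (0.077) in the ob/ob livers. The fasted groups overlapped for CTNS, and its call was lost without fasted vector or fasted FH replicate 1 or 2 or ob/ob FH replicate 1 or 3 (0.30 to 0.62, adjusted p up to 0.152). SLC17A5, the sialic acid exporter, rose by 0.65 (adjusted p = 0.00302) and was at 0.20 (0.279). The differences were -0.11 (adjusted p = 0.815) and -0.44 (0.224), and on library totals both genes were below 0 in both models (-0.22 and -0.27, -0.026 and -0.42).

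MCOLN1, the calcium channel of the lysosomal membrane, was at 20.9, 27.1 and 28.6 CPM (vector) against 27.1, 28.6 and 31.6 CPM (FH) in the fasted and 26.5, 22.2 and 28.0 CPM (vector) against 22.3, 21.8 and 24.8 CPM (FH) in the ob/ob livers. The groups overlapped in both, with changes of 0.19 (adjusted p = 0.264) and -0.15 (0.364), and on library totals it fell by 0.49 and 0.77. CD63, a tetraspanin of late endosomes, was at 6.599, 4.49 and 4.99 CPM (vector) against 5.30, 4.55 and 4.34 CPM (FH) in the fasted livers but scattered widely in the ob/ob livers, at 12.9, 4.63 and 36.9 CPM with the vector and 10.9, 39.0 and 24.98 CPM with FH. Its coefficient of variation of 92.3% in the ob/ob vector group was the highest of the 43 genes. The changes of -0.18 (adjusted p = 0.823) and 0.46 (0.494, -0.13 on library totals) did not pass, but without ob/ob vector replicate 3 the latter was 1.53 and passed (adjusted p = 0.0134).

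The cholesterol exporters differed from each other in their fasted values. NPC1, the membrane protein that moves cholesterol out of the lysosome, went from 45.0, 65.2 and 55.6 to 165, 169 and 154 CPM in the fasted livers, the second largest rise of the 43 genes there (1.55, SE 0.15, adjusted p = 3.82e-06 by edgeR). The ob/ob libraries went from 45.3, 47.5 and 57.4 to 77.7, 84.1 and 90.4 CPM (0.75, SE 0.14, 0.000701), without overlap in either. NPC2, the soluble protein that hands cholesterol to NPC1, was at 87.6, 73.3 and 65.9 CPM (vector) against 78.9, 84.5 and 90.0 CPM (FH) in the fasted livers, which overlapped (0.16, adjusted p = 0.32). On library totals this fasted value was -0.51 and passed edgeR's test (adjusted p = 0.0036). Its ob/ob levels were 77.9, 89.6 and 94.1 CPM (vector) against 116, 134 and 112 CPM (FH) without overlap, a rise of 0.47 (0.00885) that turned to -0.15 on library totals.

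Whether FH acted differently in the 2 models was tested as the difference of its effects, ob/ob minus fasted. Of the 43 genes 3 were higher in this difference (CTSS, CTSC and LGMN) and 2 lower (ARSA and NPC1), beside 4.77% and 3.66% of all genes tested. These counts are close to the background for a list of 43, and the median of the members was 0.02 against -0.11 over all genes. CTSS differed by 1.53 (SE 0.26, edgeR adjusted p = 0.00411), LGMN by 1.01 (SE 0.27, 0.0361), CTSC by 0.83 (SE 0.23, 0.0428), ARSA by -1.31 (SE 0.34, 0.0332) and NPC1 by -0.81 (SE 0.20, 0.0274). On library totals the same 5 were called. With upper-quartile scaling 4 were higher, the 3 proteases among them, and 0 lower, beside 6.03% and 1.64% of all genes.

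CTSS kept its call in all 12 fits that leave out 1 library (1.29 to 1.69, adjusted p 0.00285 to 0.0164). The other 4 calls were close to the threshold and were lost without some single libraries. ARSA was called in 2 of the 12 fits, without fasted FH replicate 1 or ob/ob vector replicate 2, and missed the threshold in the other 10 (-1.604 to -1.14 over all 12, adjusted p up to 0.0896). CTSC was called in 3, without fasted vector replicate 1 or 3 or ob/ob vector replicate 2 (0.65 to 0.95 over all 12, up to 0.0993). LGMN was called in 5, without fasted vector replicate 1 or 3, ob/ob vector replicate 2 or 3, or ob/ob FH replicate 1 (0.81 to 1.24, up to 0.0951). NPC1 was called in 4, without fasted vector replicate 2, fasted FH replicate 3, or ob/ob vector replicate 1 or 2 (-0.94 to -0.64, up to 0.0844).

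Most markers of macrophages, endothelium and stellate cells were higher in this difference, as were the 3 proteases, while the 5 cholangiocyte and 7 lymphocyte markers did not pass edgeR's test of it (medians 0.62 and 1.14). Of the 13 macrophage markers 9 fell in the fasted and 10 rose in the ob/ob livers, beside 27.6% and 25.8% of all genes. On library totals 11 fell in the former, beside 55.7% of all genes. In the latter 3 rose and 1 fell, beside 6.83% and 53.3%. They summed to 498 to 674 CPM in the fasted vector and 259 to 290 CPM in the fasted FH libraries. The ob/ob sums were 352 to 556 CPM and 723 to 996 CPM, and 10 of 13 markers were higher in the difference on either scale. No macrophage marker was at 0 in every library. Of the markers of sinusoidal endothelium 9 of 9, and of stellate cells 5 of 7, were also higher in the difference (9 and 6 on library totals). Over all genes 4.77% were higher in it on the TMM scale, and 722 of 15228 on library totals. Relative to the summed macrophage markers, CTSS stood at 6.38% ± 0.599 (SD, n = 3) and 6.76% ± 1.03 in the fasted and 7.28% ± 1.92 and 5.82% ± 0.267 in the ob/ob libraries, vector and FH. CTSC stood at 12.1% ± 0.579 and 27.2% ± 1.92, and then at 14.2% ± 3.11 and 15.6% ± 4.68. LGMN stood at 8.84% ± 0.782 and 19.6% ± 0.676, and then at 10.7% ± 2.83 and 12.6% ± 0.740. The part of these cells in the result was not tested.

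**Figure D5:**
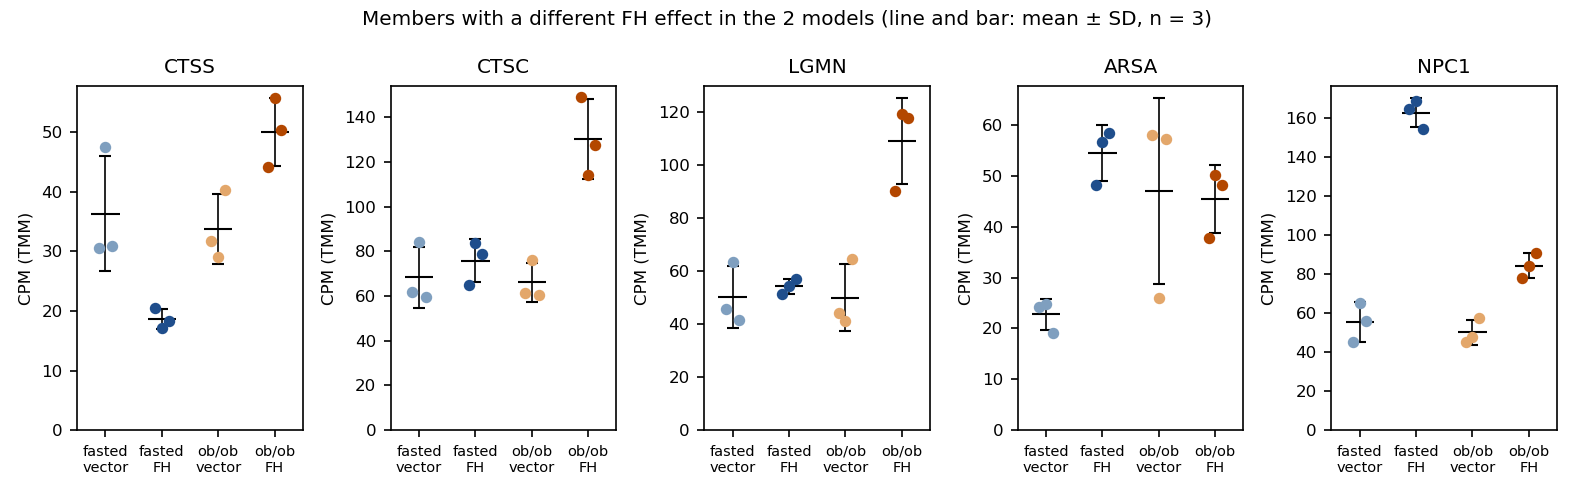
CPM (TMM) of CTSS, CTSC, LGMN, ARSA and NPC1 in each library, with the mean ± SD of 3 libraries per group. The 3 proteases have their highest mean in the ob/ob FH group, ARSA is low in the fasted vector libraries and in 1 ob/ob vector library, and NPC1 is highest in the fasted FH libraries.

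The last comparison set the ob/ob against the fasted vector libraries, which are also the controls of the FH comparisons. Of the 43 genes 5 were higher in the ob/ob livers (ARSB, ARSA, GM2A, IDS and GALC) and 4 lower (CTSL, CTSF, GAA and LAMP2), beside 9.36% and 8.18% of all genes. The median was 0.17 against -0.00071 over all genes. On library totals 14 were higher and 2 lower, beside 17.9% and 4.21%. CTSL had the largest fall (-1.31, SE 0.20, edgeR adjusted p = 0.000883), from 865, 1234 and 827 CPM in the fasted to 350.1, 339 and 494 CPM in the ob/ob vector libraries, and with FH it stood at 1672, 1410.2 and 1977 against 707, 755 and 803 CPM. CTSF was at 21.6, 24.4 and 19.1 CPM (fasted) against 11.2, 11.1 and 14.6 CPM (ob/ob) (-0.82, SE 0.14, 0.00152), and with FH at 44.4, 43.5 and 51.5 against 23.0, 23.8 and 23.3 CPM. In both genes the fasted libraries were higher than the ob/ob libraries with either virus. SGSH had the next largest negative value without passing (-0.70, adjusted p = 0.174).

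ARSB was 1.11 higher in the ob/ob livers (SE 0.21, edgeR adjusted p = 0.0026) and ARSA 1.05 (SE 0.25, 0.0105), a call lost for ARSA without fasted vector replicate 3 (0.87 to 1.34 over the 12 fits, up to 0.0551). CD63 had a larger value but did not pass (1.77, SE 0.59, 0.053). IDS was higher by 0.65 and kept its call in all 12 fits (0.53 to 0.71). GM2A (0.67) missed the threshold without fasted vector replicate 1 or 3 (0.52 to 0.81, up to 0.0846). GALC (0.59) missed it without any of 7 libraries: fasted vector replicate 2 or 3, fasted FH replicate 1 or 3, ob/ob vector replicate 2 or 3, or ob/ob FH replicate 1 (0.51 to 0.71, up to 0.128). GAA (-0.54) missed it without fasted vector replicate 2 or ob/ob vector replicate 1 or 2 (-0.68 to -0.41, up to 0.109), and LAMP2 (-0.50) without fasted vector replicate 1 or 2 or ob/ob vector replicate 1 or 3 (-0.59 to -0.42, up to 0.103). Without ob/ob vector replicate 2 the number of higher members was 9.

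By level per kilobase of exon (GENCODE M21), LAMP1 and PSAP were among the 3 highest members in every group. In the fasted vector libraries CTSL led at 150.3 ± 34.7 CPM per kb (SD, n = 3), followed by LAMP1 at 97.9 ± 10.7, PSAP at 94.4 ± 14.2, LAMP2 at 79.98 ± 9.49 and CTSH at 74.9 ± 11.3. LAMP1 and PSAP did not differ beyond their spread, nor did LAMP2 and CTSH. In the ob/ob vector libraries LAMP1 (132 ± 27.7), PSAP (106 ± 39.3) and CTSZ (69.1 ± 26.2) led and CTSL was at 60.8 ± 13.3. With FH, PSAP led in both models, at 321 ± 45.4 in the fasted and 387 ± 22.2 in the ob/ob libraries. Within the fasted vector libraries GALC (0.350 ± 0.0496) and SGSH (0.532 ± 0.207) were the lowest.

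Within groups the members varied about as much as other genes or less, in a comparison that was not matched for expression level. The median coefficient of variation over the 43 genes was 15.4% in fasted vector, 9.42% in fasted FH, 17.5% in ob/ob vector and 7.15% in ob/ob FH libraries, against 17.7%, 14.97%, 17.7% and 12.1% over all genes tested. Among the ob/ob vector libraries replicate 3 was the highest in 32 of 43 genes (33.4% of all genes) and replicate 2 the lowest in 28 (40.2% of all genes). Without replicate 3 the median ob/ob change was 1.15, with 36 genes higher. Without replicate 2 it was 0.74, with 32 genes higher.

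Of the genes around the lysosome, most of those that tag and sort its enzymes rose in both models on the TMM scale. Of 16 such genes 13 rose and 1 fell in the fasted and 14 rose and 1 fell in the ob/ob livers, with medians of 0.71 and 0.64. Over all genes 27.4% rose and 27.6% fell in the former, and 25.8% and 27.9% in the latter. On library totals 4 rose and 2 fell in the fasted livers, beside 7.16% and 55.7% of all genes. In the ob/ob livers 3 rose and 1 fell, beside 6.83% and 53.3%. AP1B1, a subunit of the adaptor that buds vesicles from the Golgi, rose by 1.28 and 1.42. IGF2R, the large mannose 6-phosphate receptor, went from 21.8 ± 4.49 to 59.5 ± 13.8 CPM (SD, n = 3, 1.44) and from 34.2 ± 1.53 to 73.1 ± 6.398 CPM (1.09). The sorting adaptors GGA2 (1.12 and 1.39) and GGA1 (0.75 and 0.70) rose too.

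Of 43 tested genes among 45 further lysosomal hydrolases and membrane proteins, 22 rose and 7 fell in the fasted and 26 rose and 4 fell in the ob/ob livers, with medians of 0.57 and 0.80. Over all genes 27.4% rose and 27.6% fell in the fasted, and 25.8% rose and 27.9% fell in the ob/ob livers. On library totals 10 rose and 15 fell in the fasted livers, beside 7.16% and 55.7% of all genes. In the ob/ob livers 15 rose and 11 fell, beside 6.83% and 53.3%. HGSNAT (1.48 and 1.15), an acetyltransferase of heparan sulfate breakdown, was among those with the smallest adjusted p in both models. PLBD2 (1.47) and the sulfatase GALNS (1.99) followed in the fasted livers, and the mannosidase MAN2B2 (1.67) and LAPTM4B (1.30) in the ob/ob livers. CST3, which encodes the secreted cathepsin inhibitor cystatin C, rose by 0.83 and 0.81. It was 1 of 2 inhibitors tested, and CSTB did not pass (0.11 and 0.091) but fell on library totals (-0.57 and -0.53, adjusted p = 0.0186 and 0.0251).

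The counts over the 9 regulators of lysosomal genes were close to the shares over all genes (27.4% and 27.6%, 25.8% and 27.9%). With FH 3 rose and 3 fell in the fasted and 1 rose and 4 fell in the ob/ob livers. On library totals 1 rose and 5 fell (7.16% and 55.7% of all genes), and 0 rose and 6 fell (6.83% and 53.3%). ZKSCAN3, a repressor of lysosomal and autophagy genes, fell from 154 ± 39.6 to 51.9 ± 1.94 CPM (-1.57, SE 0.16, edgeR adjusted p = 5.56e-06) and from 121 ± 7.53 to 31.4 ± 2.63 CPM (-1.94, SE 0.16, 1.49e-06). TFE3, an activator of CLEAR genes, rose by 0.65 and 0.68, with -0.016 on library totals in the fasted livers. TFEB, its relative, named here after its values were seen, rose by 0.83 in the fasted livers (adjusted p = 0.00718) and was at 0.37 in the ob/ob livers (0.175), with -0.25 on library totals. TFEC fell by 2.23 in the fasted and 0.74 in the ob/ob livers. FLCN, which with FNIP1 or FNIP2 controls the lysosomal recruitment of TFEB and TFE3, fell by 0.58 and 0.44. FNIP1 was at -0.12 (adjusted p = 0.468) and fell by 1.11 (2.55e-05), and FNIP2 rose by 1.16 (0.000173) and was at 0.18 (0.408, -0.44 on library totals).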

How the data were processed

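The deposited table of whole-number counts per gene was used as the authors gave it, for 12 libraries. The aligner was STAR 2.7.11a and the build GRCm39, per the submitters' processing notes. Per the labels' protocols, libraries came from TRIzol-extracted total RNA with a stranded mRNA kit. The tool, annotation and strand option used to count reads were not given in the sources used here. The labels gave each library's group.

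Genes were matched by symbol. Of 56441, 15228 passed edgeR's filterByExpr (10 counts, 15 in total) and were fitted with edgeR 4.0.16 in R 4.3.3: TMM scaling, quasi-likelihood F test, all 4 groups in 1 model (8 residual degrees of freedom), Benjamini-Hochberg adjustment over the 15228 genes, calls under 0.05. Errors of log2 fold changes are standard errors, and ± is the SD of 3 libraries. Libraries held 12231828 to 25873379 counts, and SGSH, GLA and IDUA had the lowest mean CPM among members. Alternatives were library totals, DESeq2's size factors, upper quartiles, no filter, DESeq2 1.42.0, counts thinned to 12231828, a replicate block, only the libraries compared, and leaving out each library. The fit was tested on simulated data. Within groups, libraries differed beyond sampling noise (chi-square per degree of freedom 22.0 to 119). Promoters are RefSeq's (GRCm38.p6), and exon lengths and overlaps come from GENCODE M21 (GRCm38), joined by symbol.

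The members, lists and tests were chosen with earlier results of these data known. Per class, values in every library are given for the largest and smallest change in each FH comparison, for genes that differ between models, and for the 3 largest changes each way between vector groups. From other lists up to 4 called genes of smallest adjusted p are named, and 1 gene that the rule would name is not reported here.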

Additional observations from a re-analysis of the deposited data

Results flagged for a closer look

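The FH effect differed between the ob/ob and the fasted livers by edgeR's test of the difference itself for 5 of the 43 genes: CTSS (1.53 log2 units, adjusted p = 0.00411), LGMN (1.01, 0.0361), CTSC (0.83, 0.0428), NPC1 (-0.81, 0.0274) and ARSA (-1.31, 0.0332). Among the surrounding genes it differed for the macrophage lysosomal protein CD68 (2.05, adjusted p = 0.00201), the endosomal sorting receptor SORL1 (1.72, 0.0363), LAPTM5, a lysosomal membrane protein of blood cells (1.62, 0.0229), TFEC (1.48, 0.0182), the nucleoside transporter SLC29A3 (1.16, 0.0323), FNIP1 (-0.99, 0.00878) and FNIP2 (-0.98, 0.0335). The delivered gene FH1 differed as well (1.13, adjusted p = 0.0267). CTSS, CD68, TFEC and FNIP1 kept their calls in all 12 fits that leave out 1 library. The values over these fits were 1.93 to 2.29 for CD68, 1.26 to 1.75 for TFEC and -1.10 to -0.83 for FNIP1. For TFEC and FNIP1 the edgeR adjusted p reached 0.0456 and 0.0390. FH1 kept its call in 7 of the 12 fits, LAPTM5 in 7, SLC29A3 in 5, SORL1 in 4 and FNIP2 in 3. All of these differences set ob/ob FH libraries with XIST and no Y-linked counts against libraries with the reverse, and that difference and FH cannot be told apart.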

How the results depend on the processing

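The counts of members that rose, 32 in the fasted and 34 in the ob/ob livers, stayed at 25 to 32 and 31 to 36 over all alternatives except library totals, where they were 15 and 16, with 9 and 7 lower. On library totals the model comparison gave 16 differing members (14 higher, 2 lower).

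On library totals these members turned below 0 in the fasted livers: CTSC -0.52, CTSH -0.57, LGMN -0.55, NEU1 -0.24, GLA -0.068, FUCA1 -0.067, IDS -0.47, ASAH1 -0.50, GALC -0.25, LAMP2 -0.18, MCOLN1 -0.49, CLN3 -0.11, CTNS -0.22, SLC17A5 -0.026 and NPC2 -0.51, with TFE3 at -0.016. In the ob/ob livers they were CTSH -0.50, CTSS -0.047, NEU1 -0.23, MANBA -0.19, ASAH1 -0.17, CD63 -0.13, SCARB2 -0.11, CTNS -0.27, SLC17A5 -0.42 and NPC2 -0.15. With upper-quartile scaling the fasted values of CTSC (-0.097), CTSH (-0.15), LGMN (-0.13), IDS (-0.048), ASAH1 (-0.079), MCOLN1 (-0.056) and NPC2 (-0.085) did so. Leaving out 1 library moved 6 values across 0 that had not passed the test: LGMN from -0.0086 to 0.33 and IDUA from -0.20 to 0.12 in the fasted livers, and IDS from -0.11 to 0.082, ARSA from -0.33 to 0.14, GALC from -0.18 to 0.0415 and CD63 from -0.0074 to 1.53 in the ob/ob livers. CD63 passed at 1.53, without ob/ob vector replicate 3 (adjusted p = 0.0134), and with no filter on low counts (0.47, adjusted p = 0.0322).

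The 5 members that differ between models were 1 to 6 when 1 library was left out (1 to 4 higher, 0 to 3 lower). They were 3 at equal depth (0 lower), and 0 were lower with upper quartiles. In the model comparison leaving out 1 library gave 2 to 9 higher and 2 to 4 lower, and the fit on only the 6 libraries compared gave 5 differing, 3 higher and 2 lower. Same-numbered libraries did not deviate together (correlations -0.147 to 0.0669). The groups compared were FH with vector within each model, and fasted with ob/ob vector. No sign of pairing by number was seen, but such correlations cannot settle whether the numbers pair the libraries. With the replicate block 32 and 34 members rose, 1 was lower in the difference in place of 2, and IDUA was at 0.0079 in the fasted livers. The cause of these changes was not tested. SGSH, GLA and IDUA had the lowest mean CPM of the members over the 4 groups, so the least depth stands behind their values.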
